A study of Homo sapiens with 6 samples.

Results

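The p38 MAP kinase module was examined as 9 genes in Kasumi-1 cells. They are the 4 p38 kinases MAPK14, MAPK11, MAPK12 and MAPK13 (p38α, p38β, p38γ and p38δ), the upstream kinases MAP2K3 and MAP2K6, and the 3 MAPK-activated protein kinases MAPKAPK2, MAPKAPK3 and MAPKAPK5. Each has 1 row among the 29810 genes of the deposited table and was found by its Ensembl identifier. The family was taken up because MAPKAPK2 and MAPK12 were lower in every I3 library. The values of those 2 genes are therefore a description, and tests are given only for the other 7 members.

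Kasumi-1 is an established line of human acute myeloid leukemia (AML) with the fusion gene RUNX1-RUNX1T1. mRNA-seq was available for 3 libraries of control cells and 3 libraries of cells incubated for 48 h with 0.25 μM I3, a histone deacetylase (HDAC) inhibitor. According to the methods, control cells received DMSO alone, at a matched concentration. All 6 libraries come from this same line, which is a limit of the model, and the labels do not say whether they came from separate cultures. The p-values thus measure the spread between these libraries, which may be technical. The labels and the methods give 48 h, whereas another passage of the study gives a longer incubation. The comparison asks which mRNAs of the module differ between I3 and control cells.

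The p38 pathway is a relay of protein kinases that answers to stress, cytokines and microbial products. MAP3 kinases activate MAP2K3 and MAP2K6, which phosphorylate the threonine and the tyrosine of a Thr-Gly-Tyr motif in the activation segment of the p38 kinases. Active p38 phosphorylates MAPKAPK2 and MAPKAPK3, and MAPKAPK2 is known in myeloid cells for the stabilization of cytokine mRNAs. MAPKAPK5 is also bound by the atypical kinase MAPK6 (ERK3).

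The coding sequence of the activation segment is shown for the 4 p38 kinases, because it carries the motif that MAP2K3 and MAP2K6 modify and shows how far the paralogs differ at the level of the read. The sequences are those of GENCODE release 29 on GRCh38, 5′ to 3′ on the coding strand, and each lies within 1 exon. Capitals mark the codons of the Thr-Gly-Tyr motif.
MAPK14, chr6:36075854-36075928, plus strand: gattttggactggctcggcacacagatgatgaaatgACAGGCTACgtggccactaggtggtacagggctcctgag
MAPK11, chr22:50266968-50267042, minus strand: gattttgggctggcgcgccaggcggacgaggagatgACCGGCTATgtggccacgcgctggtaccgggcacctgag
MAPK12, chr22:50256119-50256193, minus strand: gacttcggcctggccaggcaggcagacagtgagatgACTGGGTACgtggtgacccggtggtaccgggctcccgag
MAPK13, chr6:36136662-36136736, plus strand: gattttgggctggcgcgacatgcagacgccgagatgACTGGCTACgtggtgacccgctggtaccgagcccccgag

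Of these 75 bases, MAPK12 shares 61 with MAPK13, 56 with MAPK14 and 56 with MAPK11. Over the whole coding sequence MAPK12 was closest to MAPK13, with 72.0% identical bases, and MAPK14 to MAPK11, with 68.8%. The longest identical run between the transcripts of any pair of p38 kinases was 26 bases, between MAPK14 and MAPK11. It was 38 bases between MAPKAPK2 and MAPKAPK3 and 26 bases between MAP2K3 and MAP2K6. The sources used here give no read length.

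The annotation places the p38 genes as neighbouring pairs. MAPK14 (chromosome 6, 36027677 to 36111236) and MAPK13 (chromosome 6, 36127809 to 36144524) lie on the plus strand, and MAPK12 (chromosome 22, 50245450 to 50261825) and MAPK11 (chromosome 22, 50263713 to 50270767) on the minus strand. MAPK12 shares 2763 bases of its exons, 29.3% of their length, with the histone deacetylase gene HDAC10 on the same strand. The HDAC10 row held 0.0266 FPKM on average in control cells and 0.0151 FPKM after I3. The assignment of reads in this stretch is therefore uncertain. MAPKAPK2 lies on chromosome 1 from 206684944 to 206734283 and shares no exon base with another gene of the annotation. MAPKAPK3 shares 218 bases with CISH and MAPKAPK5 shares 792 bases with MAPKAPK5-AS1, in both cases on the opposite strand. CISH, an inhibitor of cytokine signalling, had 3.26 ± 0.210 FPKM in control cells and 2.85 ± 0.164 FPKM after I3 (SD, n = 3), without overlap (log2 fold change -0.17, adjusted p = 0.998 from limma). MAPKAPK5 also shares 2129 bases, 15.2% of its exons, with the pseudogene ADAM1A on the same strand.

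The authors deposited 1 FPKM value (fragments counted on a gene, scaled by the length of the gene and by library depth) per gene in every library. Reads rebuilt from these values put the depth at 17500323 to 18193372 reads per library. For each library, the deviation of its log2 level from the mean of all 6 libraries was compared with transcript GC content across genes. The rank correlation was -0.446 to 0.446, depending on the library. It was negative in control 1, I3 1 and I3 3 and positive in control 2, control 3 and I3 2. The 10 myeloid and fusion markers set for Kasumi-1 all had a mean of at least 1 FPKM, led by MPO, and their summed level was 17095 to 21392 FPKM in control and 17120 to 21263 FPKM in I3 libraries. The markers of T cells summed to at most 1.15 FPKM in any library and those of B cells to at most 2.13 FPKM. CD3E and TRAC were at 0 in some libraries, CD3D was at 0.118 to 1.09 FPKM and CD79A at 0.897 to 1.90 FPKM. The fibroblast and epithelial markers summed to 28.2 to 31.6 FPKM, nearly all of it EPCAM, while COL1A1 and KRT8 were at or near 0. Of 6 reference genes, ACTB, GAPDH, HPRT1, PGK1 and B2M had overlapping groups and TBP was higher in all I3 libraries (log2 fold change 0.14, adjusted p = 0.998 from limma).

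In control cells MAPKAPK3 had the highest level of the module, with 67.1 ± 4.57 FPKM (SD, n = 3), above 96.0% of the 12960 genes tested. MAPK14 followed with 24.3 ± 0.575 FPKM and MAPKAPK2 with 22.6 ± 1.55 FPKM, and these neighbours in the order overlapped between libraries. MAP2K3 had 8.77 ± 0.757 FPKM, MAPK12 5.47 ± 0.270 FPKM, MAPKAPK5 3.00 ± 0.239 FPKM and MAPK11 2.35 ± 0.324 FPKM. No other neighbours in the order overlapped between the 3 control libraries, although MAPKAPK5 exceeded MAPK11 by only 1.27 times. The order depends on the exon length by which FPKM is scaled. It was 14006 bases for MAPKAPK5 and 2688 bases for MAPK11, with 2223 and 335 control reads. MAPK13 was listed at 0.420 ± 0.0731 FPKM and MAP2K6 at 0.0123 ± 0.00533 FPKM.

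Of the upstream kinases, MAP2K3 carried nearly all the mRNA, and MAP2K6 rested on very few reads. The values of MAP2K6 stood in a ratio of 1 to 2 after scaling by depth, with the upper step in control 1, I3 1 and I3 2. They were not whole reads with the exon length used here. A level of this kind cannot show a difference between the groups.

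**Figure D1:**
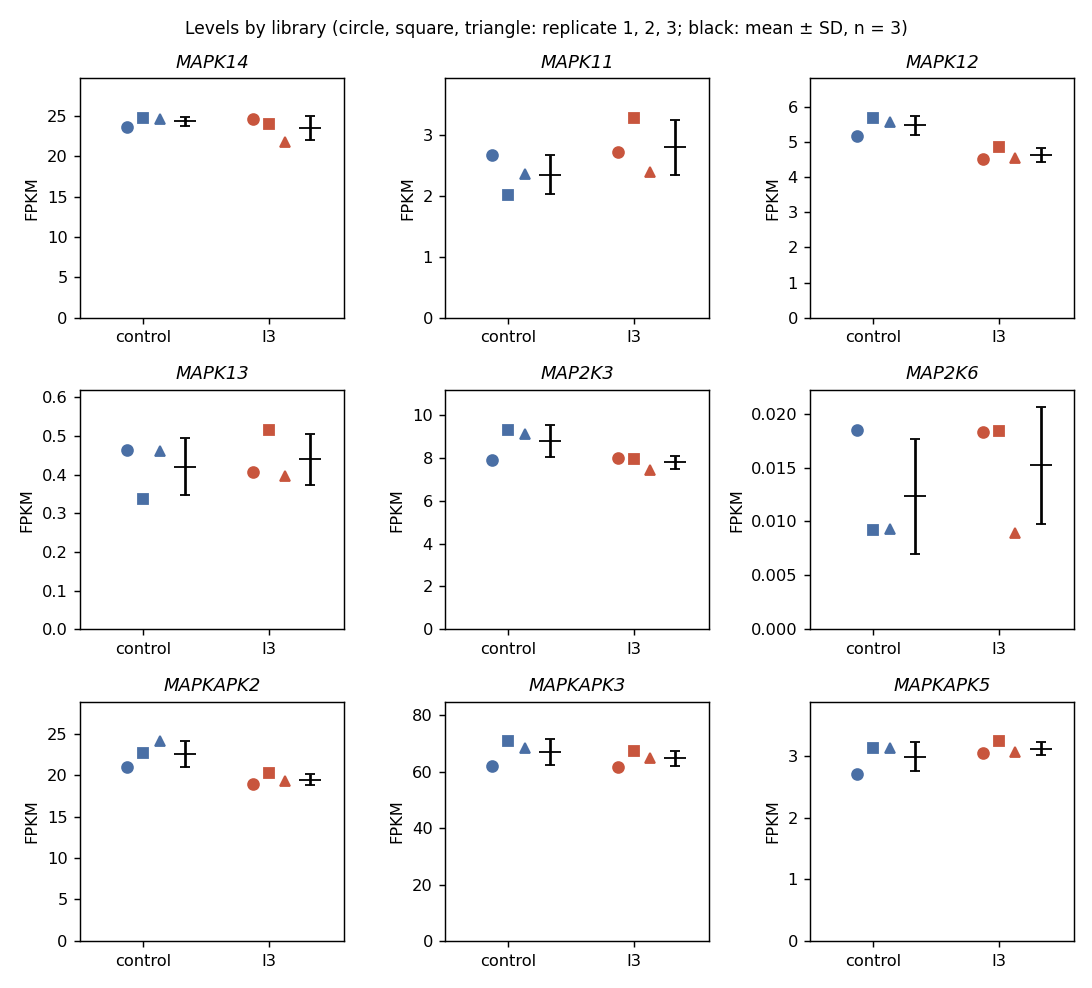
FPKM of each gene of the p38 module (vertical axes from 0, on a scale of their own) in control and I3 libraries. Circles, squares and triangles are replicates 1, 2 and 3, and black bars give the mean ± SD (n = 3). The I3 libraries lie below the control libraries for MAPK12 and MAPKAPK2, and the groups overlap for the other 7 genes.

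A mean level of at least 0.5 FPKM was required for the test, and 7 of the 9 members passed it. MAPK13 and MAP2K6 did not, and their values come from a fit without a minimum. limma on log2(FPKM + 0.5) called 0 of the 12960 tested genes lower and 0 higher at an adjusted p of 0.05 with a log2 fold change of 0.58, a background of 0% in either direction. At an unadjusted p under 0.05 it counted 370 genes lower (2.85%) and 269 genes higher (2.08%). limma's voom on the rebuilt reads also called 0 genes in either direction at the adjusted p. Fold changes given here are on the log2(FPKM + 0.5) scale, which understates the change of genes with a low level. In bulk RNA, fewer cells that express a gene and less RNA per cell cannot be told apart.

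The I3 libraries lay entirely below the control libraries for 2 of the 9 members, MAPKAPK2 and MAPK12, which is the property that chose them. Over all tested genes this held for 4.64%. They lay entirely above for 0 of the 9 members, against 5.06% of all tested genes. MAP2K3 stood just outside the rule, since its highest I3 value, 7.996 FPKM, exceeded its lowest control value, 7.90 FPKM. Just inside it was MAPKAPK2, with 20.2 FPKM as the highest I3 and 21.0 FPKM as the lowest control value.

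Without control 1 the count of members below was 5 and not 2, as MAPK14, MAP2K3 and MAPKAPK3 joined MAPK12 and MAPKAPK2, and MAPK11 lay above. The share of all tested genes without overlap then also was higher, at 12.1% below and 18.9% above. With any other single library left out, the members below were MAPK12 and MAPKAPK2, against 6.85% to 10.5% of all tested genes. MAPK11 also lay above without I3 3 (9.24% of all tested genes).

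MAPK12 encodes p38γ, a p38 kinase known from muscle and less sensitive to common p38 inhibitors than p38α. It had 5.16, 5.67 and 5.57 FPKM in control 1, 2 and 3, and 4.51, 4.84 and 4.53 FPKM in I3 1, 2 and 3. All I3 values were below all control values, and the gap between the groups was 5.16 to 4.84 FPKM. The log2 fold change was -0.22 (standard error 0.0712), from 2729 control reads and 2346 I3 reads. With single libraries left out it lay between -0.26 and -0.19, and its sign was fixed by the choice of the gene.

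The median GC content of the MAPK12 transcripts, 64.2%, was the highest of the module. After removal of the GC trend from each library the log2 fold change of MAPK12 was -0.15. Within the libraries of negative GC trend, 1 control and 2 I3, it was -0.17, and within those of positive GC trend, 2 control and 1 I3, it was -0.20. The sign of the 2 values within the sets was likewise fixed by the choice. The GC-corrected value belongs to the same chosen gene and is a description. The sets were defined from the data and hold too few libraries for a test.

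MAPKAPK2 phosphorylates mRNA-binding proteins such as tristetraprolin and the small heat shock protein HSPB1. It had 21.0, 22.6 and 24.1 FPKM in control 1, 2 and 3, and 18.9, 20.2 and 19.3 FPKM in I3 1, 2 and 3. The control libraries were spread more widely than the I3 libraries, with a coefficient of variation of 6.87% against 3.44%, and the groups did not overlap. The log2 fold change was -0.21 (standard error 0.0669), from 5012 and 4394 reads. It was -0.26 without control 1 and -0.16 without control 3, the extremes over single libraries left out. After the GC correction it was -0.18, and it was -0.13 and -0.20 within the libraries of negative and positive GC trend. The sign within these sets and with single libraries left out was fixed by the choice of the gene. The GC-corrected value belongs to the same chosen gene and is a description.

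MAPK14 encodes p38α, the ubiquitous p38 kinase and the target of most p38 inhibitors. It had 23.7, 24.7 and 24.6 FPKM in control cells and 24.6, 24.1 and 21.8 FPKM after I3. The groups overlapped, and I3 3 alone lay below the lowest control library. The log2 fold change was -0.052, with a 95% interval of -0.20 to 0.096 (adjusted p = 0.998 from limma, two-sided exact permutation p = 0.5), and it was -0.00037 without I3 3. The interval excludes a change as large as 0.58 in either direction.

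MAPK11, which encodes p38β, had 2.67, 2.03 and 2.36 FPKM in control cells and 2.74, 3.28 and 2.39 FPKM after I3. It was the tested member with the most positive log2 fold change, 0.21 (95% interval -0.10 to 0.52, adjusted p = 0.998 from limma, exact permutation p = 0.2). The groups overlapped, since control 1 exceeded I3 3. The value rested on 335 control reads and 405 I3 reads and was 0.11 without I3 2 and 0.12 without control 2. Within the libraries of negative GC trend it was -0.054, and within those of positive trend it was 0.49.

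MAPK13, which encodes p38δ, had a mean under the minimum in both groups, with 0.464, 0.336 and 0.461 FPKM in control cells and 0.405, 0.515 and 0.397 FPKM after I3. The groups overlapped widely. Its log2 fold change was 0.031 (95% interval -0.29 to 0.35, adjusted p = 0.982 from limma without a minimum, exact permutation p = 0.8), from 160 and 170 reads.

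The 4 p38 kinases together summed to 32.6 ± 0.539 FPKM without and 31.4 ± 1.94 FPKM with I3 (SD, n = 3). MAPK14 made up 74.7 ± 0.721% of this sum in control cells and 74.9 ± 1.35% after I3 (SD, n = 3). The share of MAPK12 was 16.1%, 17.3% and 16.9% in control cells and 14.0%, 14.8% and 15.5% after I3. The share of MAPK11 was 6.19% to 8.36% in control cells and 8.21% to 10.04% after I3. MAPK14 was therefore the bulk of p38 mRNA in either group. The shares of MAPK12 and MAPK11 depend on their exon lengths, 9424 and 2688 bases, with 2729 and 335 control reads. The shares of MAPK12, which were not corrected for GC content, did not overlap between the groups. They hold a gene that was chosen for its difference and are given as a description.

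MAP2K3 encodes an upstream kinase that acts mainly on p38. It had 7.90, 9.30 and 9.11 FPKM in control cells and 7.996, 7.93 and 7.41 FPKM after I3. Control 2 and control 3 lay above all I3 libraries, whereas control 1 lay among them. The log2 fold change was -0.16 (95% interval -0.35 to 0.026, unadjusted p = 0.0819 and adjusted p = 0.998 from limma, exact permutation p = 0.3), and it ranged from -0.23 without control 1 to -0.12 without control 2. MAP2K6 had a log2 fold change of 0.0081 (adjusted p = 0.982 from limma without a minimum, exact permutation p = 1).

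MAPKAPK3, the close relative of MAPKAPK2, had 62.0, 70.8 and 68.6 FPKM in control cells and 61.8, 67.3 and 65.1 FPKM after I3. The groups overlapped. The log2 fold change was -0.050 (95% interval -0.21 to 0.10, adjusted p = 0.998 from limma, exact permutation p = 0.4), from 13940 and 13659 reads. MAPKAPK5 had 2.72, 3.13 and 3.14 FPKM in control cells and 3.05, 3.24 and 3.07 FPKM after I3, a log2 fold change of 0.052 (95% interval -0.15 to 0.25, adjusted p = 0.998 from limma, exact permutation p = 0.6). Its partner MAPK6 had 12.5 ± 0.920 FPKM in control cells and 12.5 ± 1.01 FPKM after I3 (SD, n = 3).

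**Figure D2:**
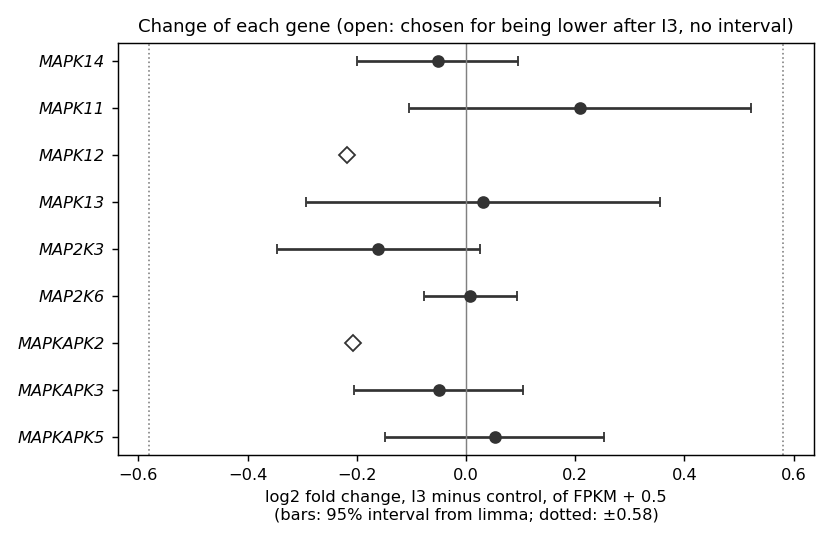
Log2 fold change of each gene (horizontal axis, I3 minus control, of FPKM + 0.5), with dotted lines at ±0.58. Filled circles have 95% intervals from limma, all of which include 0, and the open diamonds MAPK12 (-0.22) and MAPKAPK2 (-0.21) were chosen for being lower and have none.

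Ratios between members within a library do not depend on its scaling, but they can still carry its GC trend. The ratio of MAPK12 to MAPK14 was 0.218, 0.229 and 0.226 in control cells and 0.183, 0.201 and 0.208 after I3. The median GC content of the transcripts was 64.2% for MAPK12 and 45.4% for MAPK14. After the GC correction their log2 fold changes were -0.15 and -0.082, against -0.22 and -0.052 without it. The ratio itself was not tested after that correction. The ratio of MAPKAPK2 to MAPKAPK3 was 0.338, 0.320 and 0.351 in control cells and 0.306, 0.3002 and 0.296 after I3. Both ratios were lower in all I3 libraries. They hold a gene that was chosen for its difference and are given as a description.

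For 3 ratios without such a gene the exact permutation test was run. The ratio of MAPKAPK5 to MAPKAPK3 was 0.0439, 0.0443 and 0.0457 in control cells and 0.0493, 0.0481 and 0.0472 after I3, which did not overlap. This gave the smallest p that 3 against 3 libraries allow (exact permutation p = 0.1, adjusted over the 3 ratios 0.3), with a log2 difference of 0.11, higher in 3 of 3 I3 libraries. The groups overlapped after the GC correction, with a log2 difference of 0.083. MAPK11 to MAPK14 (log2 difference 0.30, exact permutation p = 0.3) and MAP2K3 to MAPK14 (log2 difference -0.12, exact permutation p = 0.2) overlapped between the groups.

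**Figure D3:**
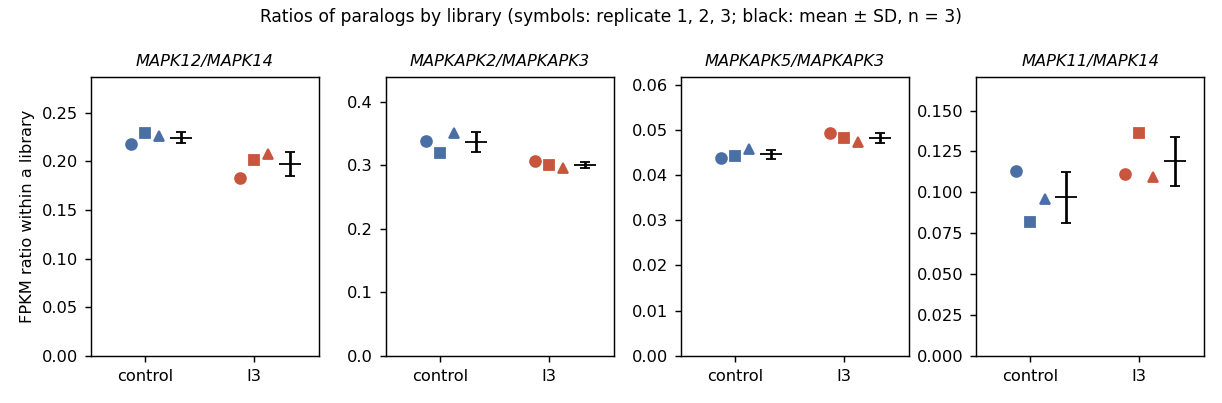
FPKM ratios within a library (vertical axes from 0) in control and I3 cells. Circles, squares and triangles are replicates 1, 2 and 3, and black bars give the mean ± SD (n = 3). MAPK12/MAPK14 and MAPKAPK2/MAPKAPK3 are lower in all I3 libraries, MAPKAPK5/MAPKAPK3 is higher in all of them, and MAPK11/MAPK14 overlaps.

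The patterns of MAPK12 and MAPKAPK2 over the 6 libraries had a Pearson r of 0.957, and both genes were chosen for the same contrast. MAP2K3 was the member most like either of them, with r = 0.872 to MAPKAPK2 and 0.885 to MAPK12, and MAPK11 had r = -0.512 and -0.546. Among all tested genes, RETN (r = 0.981), CCDC120 (r = 0.981) and P2RX4 (r = 0.972) were most like MAPKAPK2. RFNG (r = 0.997), PRR13P5 (r = 0.997) and VPS52 (r = 0.990) were most like MAPK12. An r above 0.9 was reached by 88 genes with MAPKAPK2 (0.679% of tested genes) and by 132 genes with MAPK12 (1.02%). These values describe 6 libraries of similar depth, which differ in the sign of their GC trend.

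Of the nearest coding genes on each side of MAPK12 and MAPKAPK2, those with a row in the table had overlapping groups. The nearest coding gene after MAPKAPK2 had no row, and that side was not examined. TUBGCP6, next to MAPK12, had 6.94 ± 0.144 FPKM in control cells and 6.93 ± 0.612 FPKM after I3 (SD, n = 3), and MAPK11, on its other side, is given above. DYRK3, next to MAPKAPK2, had 2.77 ± 0.151 FPKM and 2.84 ± 0.120 FPKM (SD, n = 3). In the 250 bases before the start site that RefSeq gives for MAPK12 on GRCh38.p14, 82.0% of the bases were G or C, more than in 98.3% of 35116 promoters. These bases held the GC box GGGCGG 4 times on either strand (present in 42.6% of all promoters) and the E box CACGTG 1 time (6.34%). The RUNX site TGTGGT (10.98% of all promoters) had no match there, which says only that these letters are not in the window. High GC content and GC boxes were not particular to MAPK12. The same window held 84.4% G or C with 4 GC boxes for MAPK13 and 79.2% with 5 for MAPK11. For MAPK14 it held 59.2% with 1. These p38 genes all had overlapping groups.

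The genes around the module were described with 6 lists of 94 genes, of which 78 passed the minimum. At an unadjusted p under 0.05, 5 of the 78 were lower after I3 (6.41%, against 2.85% of all tested genes) and 0 were higher (against 2.08%). Without control 1 the counts were 4 lower and 7 higher (against 3.66% and 7.30% of all tested genes). Without I3 3 they were 2 lower and 0 higher (against 1.84% and 1.78% of all tested genes). Without control 2 they were also 2 lower and 0 higher (against 1.87% and 1.70%). None passed the adjusted p. The median log2 fold change was -0.0078 over the lists and 0.011 over all tested genes. The lists were written with earlier results of these data known.

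Among the MAP3 kinases and adaptors that feed into MAP2K3 and MAP2K6, 1 of 23 tested genes was lower at an unadjusted p under 0.05. In the other direction it was 0, and the median was 0.0040. Over all tested genes, 2.85% were lower and 2.08% higher. The lower gene was RAC1, a small GTPase upstream of MAP3 kinases, with 58.8, 71.2 and 67.1 FPKM in control cells and 49.1, 45.6 and 44.6 FPKM after I3 (log2 fold change -0.49, standard error 0.0804, adjusted p = 0.454 from limma). CDC42, the related GTPase, had 65.2 ± 6.75 FPKM and 66.9 ± 1.68 FPKM (SD, n = 3). The p38-activating kinases MAP3K5, MAP3K7 and MAP3K20 had log2 fold changes of -0.054, 0.058 and 0.093.

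Among the kinases and other substrates downstream of p38, 1 of 23 tested genes was lower at an unadjusted p under 0.05. In the other direction it was 0, and the median was -0.016. Over all tested genes, 2.85% were lower and 2.08% higher. The lower gene was MKNK2, a kinase of the translation factor eIF4E, with 36.9, 37.5 and 35.5 FPKM in control cells and 32.8, 35.3 and 31.2 FPKM after I3 (log2 fold change -0.14, standard error 0.0615, adjusted p = 0.998 from limma). HSPB1, a substrate of MAPKAPK2, had the highest level of this list, with 154 ± 5.46 FPKM in control cells and 146 ± 6.73 FPKM after I3 (SD, n = 3). ZFP36, which encodes tristetraprolin, had 10.8 ± 1.195 FPKM and 10.3 ± 0.534 FPKM (SD, n = 3).

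Phosphatases that act on MAP kinases held the most negative log2 fold change of the 6 lists, that of DUSP2. Of 11 tested genes, 2 were lower at an unadjusted p under 0.05 and 0 were higher, with a median of 0.0057. Over all tested genes, 2.85% were lower and 2.08% higher, with a median of 0.011. DUSP2, a nuclear dual-specificity phosphatase, had 9.23, 12.4 and 10.1 FPKM in control cells and 7.26, 7.13 and 5.75 FPKM after I3. The groups did not overlap, with a log2 fold change of -0.62 (standard error 0.129, unadjusted p = 0.00182, adjusted p = 0.572 from limma), from 1085 and 697 reads. DUSP5, which acts on ERK, had 3.20, 3.14 and 2.34 FPKM in control cells and 2.40, 2.15 and 1.597 FPKM after I3, with overlapping groups (log2 fold change -0.41, standard error 0.159, adjusted p = 0.998 from limma). PTPN7, a tyrosine phosphatase of hematopoietic cells, was the most abundant, with 60.5 ± 4.32 FPKM and 60.7 ± 3.41 FPKM (SD, n = 3).

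The other MAP kinase modules were those of ERK, of the atypical kinases and of JNK. Of 8 tested ERK and atypical MAPK genes, 1 was lower at an unadjusted p under 0.05 and 0 were higher, with a median of -0.047. Over all tested genes, 2.85% were lower and 2.08% higher. The lower gene was MAPK3 (ERK1), with 7.09 ± 0.604 FPKM in control cells and 6.07 ± 0.410 FPKM after I3 (SD, n = 3) and overlapping groups (log2 fold change -0.21, standard error 0.0857, adjusted p = 0.998 from limma). Of 7 tested genes of the JNK module, 0 passed in either direction, against the same shares. Their median was 0.051, with a range of -0.11 (JUN) to 0.13 (MAPK8).

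The mRNAs known to be stabilized through MAPKAPK2 were scarce in these cells. Of the 10 listed, 6 passed the minimum, and PLAUR, with 2.92 ± 0.164 FPKM in control cells (SD, n = 3), had the highest level. The log2 fold changes of all 6 were negative, from -0.31 (CXCL8) to -0.084 (PLAUR), with a median of -0.19, and 0 had an unadjusted p under 0.05. Of all 12960 tested genes, 5934 had a negative log2 fold change, and the median was 0.011. A link to the level of MAPKAPK2 was not tested. For 3 of them, TNF, CXCL8 and FOS, all I3 libraries lay below all control libraries, against 4.64% of all tested genes. CXCL8 had 1.17, 0.964 and 0.829 FPKM in control cells and 0.716, 0.593 and 0.773 FPKM after I3, from 119 and 85 reads (unadjusted p = 0.0858 from limma). TNF rested on 59 and 48 reads and FOS on 151 and 117 reads. PTGS2, which did not pass the minimum, went the other way. Its log2 fold change was 0.070 in the fit without a minimum, from 86 and 100 reads, with overlapping groups.

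**Figure D4:**
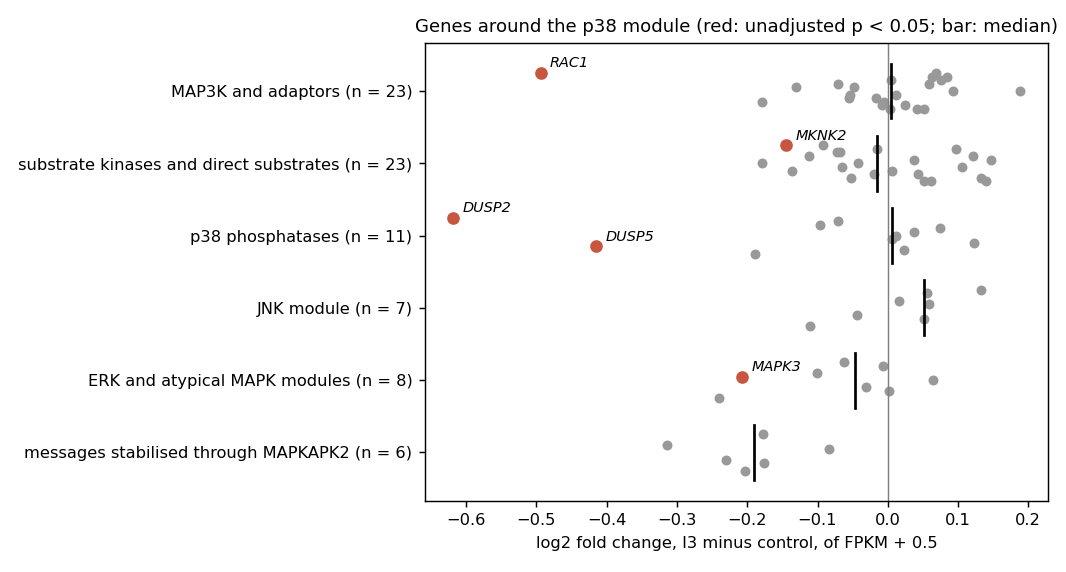
Log2 fold change (horizontal axis, I3 minus control, of FPKM + 0.5) of the 78 tested genes in the 6 lists around the module. Each point is a gene, black bars are list medians, and the 5 red points RAC1, MKNK2, DUSP2, DUSP5 and MAPK3 had an unadjusted p under 0.05, all lower after I3, with none past the adjusted p.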

How the data were processed

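Values for 3 control and 3 I3 libraries were taken from the table of the authors, who deposited FPKM with 1 column per library. Stranded libraries of polyadenylated RNA were sequenced. The processing notes of the submitters name Trimmomatic, HISAT2, Cufflinks, HTSeq and build hg38, without roles or versions. The annotation was not given in the sources used here, and the name of the table spells the compound I13. Of 29810 genes, 29703 were found in GENCODE release 29, whose exon lengths turned 95.4% of the 26609 genes above 0 into whole reads (tolerance 0.1 read). MAP2K6 was not among them.

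Groups were compared with limma 3.58.1 under R 4.3.3 (trend in eBayes) on log2(FPKM + 0.5) for genes with a mean of at least 0.5 FPKM, two-sided, with Benjamini-Hochberg adjustment over 12960 genes. In place of the count model of the methods, it suits the deposited unit and keeps the thresholds (adjusted p, 0.05, and log2 fold change, 0.58). Exact permutation tests used scipy 1.17.1 (smallest p for 3 against 3, 0.1). On simulated data limma called 79% of 100 genes changed by 1 and 96% of 100 genes changed by 2 (log2), together with 6 unchanged genes. The simulated noise was independent between genes and held no GC trend. Changes as small as those of the members were not simulated.

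The members and lists were chosen with earlier results of these data known. Genes named from a list are those with an unadjusted p under 0.05, at most 2 in each direction, beside abundant or functionally central genes chosen after their values were seen. Libraries of a group were not copies (chi-square over degrees of freedom of 4.47 or more). Alternatives were pseudocounts of 0.1 and 1, other minimums, TPM, median-of-ratios and quantile scaling, no trend, a replicate block, a GC correction (lowess, span 0.3), voom, each library left out and, added after seeing the data, the sign of the GC trend as a term. Protein sequences were not used here, and the result of 1 marker list is not reported here.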

Additional observations from a re-analysis of the deposited data

How the results depend on the processing

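No gene was called at the adjusted p in any alternative that kept all 6 libraries. Leaving out single libraries gave 0 to 1 higher genes (1 without control 1) and 0 to 2 lower genes (2 without I3 1 and 1 without I3 2). None of the 7 members with a test passed the adjusted p in any alternative, where their lowest adjusted p was 0.423 (MAP2K3). Of the genes in the 6 lists at an unadjusted p, the 5 lower became 3 after rescaling to TPM and 3 with a mean of at least 5 FPKM, and 2 to 7 with single libraries left out, with 2 without I3 3 or control 2. The 0 higher became 1 with the GC correction and the replicate block together, and 0 to 7 with single libraries left out, with 7 without control 1. Of all tested genes, 1.84% to 3.66% were lower and 1.51% to 7.30% higher at an unadjusted p under 0.05 with single libraries left out. Members below ranged from 2 to 5 in those settings, against 6.85% to 12.1% of all tested genes. Members above ranged from 0 to 1, against 8.16% to 18.9%. Counted by reads, the share of MAPK14 in control cells was 73.3%. The sign of 3 uncalled members turned. MAPK13 became -0.018 with quantile normalization, -0.027 without I3 2 and -0.037 without control 2, and ranged up to 0.066 with single libraries left out. MAP2K6 became -0.027 with the GC correction, with or without the replicate block, and -0.021 with quantile normalization. MAPKAPK5 became -0.0059 without control 1 and ranged up to 0.082 without control 3. The cause was not tested. The correlation of deviations was 0.063, 0.151 and -0.024 for control and I3 libraries numbered 1, 2 and 3. For libraries of unlike number it was -0.172 to 0.101. With 3 libraries per group this cannot show whether the numbers pair them. The replicate block left the log2 fold changes as they were, -0.21 for MAPKAPK2 and -0.22 for MAPK12, and called 0 genes in either direction. With the sign of the GC trend as a term, chosen after seeing the data, they were -0.17 and -0.18. MAPK13 and MAP2K6 gave no value with higher minimums, MAPK11 and MAPKAPK5 none at 5 FPKM, and MAP2K6 none with voom. Depth limits what can be seen for MAP2K6, which rested on very few reads.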
